A study of Homo sapiens with 12 samples.

Results

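PC3 cells carrying mutated ETV4 (ETV4AAA) were compared with PC3 cells carrying wild-type ETV4 (ETV4WT). The 4 libraries were chosen by cell line and construct, 2 per construct, of 12 libraries in the series. PC3 is a human prostate cancer line from a bone metastasis, and 22Rv1, the other line used, derives from a prostate xenograft and expresses luminal prostate genes. In each line the MSCV vector carried eGFP alone, ETV4WT before an IRES and eGFP, or ETV4AAA before an IRES and eGFP, so every group expresses eGFP and the eGFP group is the vector control. Per the labels the cells were infected with lentivirus, sorted by flow cytometry as eGFP positive and DAPI negative 1 week later, and sequenced after poly A enrichment. The sources used here do not give the residues changed in ETV4AAA, the cells that packaged the virus or whether replicates were separate infections.

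ETV4 is an ETS transcription factor of the PEA3 group, with ETV1 and ETV5, and binds DNA at sites with a GGAA core. PEA3 factors act downstream of receptor tyrosine kinases and ERK, and their protein is removed by the ubiquitin ligase that contains COP1 and DET1. In prostate tumours ETV4 and ETV1 are activated by gene fusions, and in cells such factors are known to drive feedback inhibitors of ERK signalling and matrix proteases.

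Each PC3 library held 43572713 to 51199207 counts, and mitochondrial transcripts took 4.31% to 5.14% of them. Between 28650 and 29529 genes were detected in the libraries labelled ETV4AAA, 30719 and 30873 in those labelled ETV4WT, and 29588 and 30028 with eGFP. Levels are CPM (counts scaled to a common library size) on TMM-scaled library sizes, given for replicate 1 and then replicate 2. Changes are log2 differences, ETV4AAA minus ETV4WT, with their standard error (SE), from edgeR's quasi-likelihood test on all 12 libraries. A gene rose or fell where its Benjamini-Hochberg adjusted p over 23238 genes was under 0.05. Each group has n = 2, and since nothing in the labels makes the replicates separate cultures, a p-value here reflects only how far these samples spread, which may be technical.

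ETV4 itself did not separate the constructs. It stood at 215 and 112 CPM with ETV4WT, 223 and 109 CPM with ETV4AAA and 116 and 126 CPM with eGFP (log2 0.03, SE 0.33, adjusted p = 1). In replicate 2 of both constructs ETV4 was therefore not above the vector control, which goes against those labels. ETV4 also differed between replicates 1 and 2 within each construct, and that difference enters the comparison with eGFP. The pairs are called WT-labelled and AAA-labelled below, and every direction rests on labels that ETV4 does not check in replicate 2. LRRC15, a leucine-rich repeat membrane protein that was chosen after its values were seen, stood at 60.1 and 51.6 CPM in the WT-labelled pair and 68.7 and 60.1 CPM in the AAA-labelled pair. With eGFP it was 0.0403 and 0.086 CPM, so both replicates of both constructs differed from the control at that gene. The counts do not separate introduced from endogenous ETV4 transcripts.

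The replicates of each construct stood further apart than those of the control. Across 10600 genes the log2 difference of replicate 1 from replicate 2 had an SD of 0.431 in the AAA-labelled pair, 0.423 in the WT-labelled pair and 0.098 with eGFP. Measured against counting error, the replicates' chi-square was 60.1 and 62.8 times its degrees of freedom in these pairs and 3.5 times with eGFP. The replicate differences of the 2 constructs correlated at 0.964 across these genes, so overlap of the pairs does not show that a gene is unchanged. What the replicate numbers share is not in the labels.

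In the AAA-labelled pair 2550 of 23238 genes differed from the WT-labelled pair (11.0%). Of these 848 were higher (3.65% of genes tested) and 1702 lower (7.32%). The libraries of the 2 pairs did not overlap for any of the 2550, which the call nearly entails, so it is no separate support. Falls were larger than rises: 1322 falls and 152 rises reached 2-fold, and the median log2 change was -1.92 for falls and 0.67 for rises. The median over all genes tested was 0.00. With upper-quartile scaling the split was 414 higher and 2018 lower, with DESeq2's size factors 903 and 1653. The call count depends on the other libraries in the fit: with the 4 PC3 libraries of these constructs alone it was 959 (66 higher and 893 lower), and it was 1648 without ETV4AAA replicate 1 and 1682 without ETV4AAA replicate 2.

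Falls lay mostly at low levels and rises at high levels. Among the 13802 genes under 10 CPM in both pairs 185 rose and 1376 fell, and among the 9436 genes at 10 CPM or more 663 rose and 326 fell. The median WT-labelled level of the genes that fell was 1.96 CPM, while the median AAA-labelled level of the genes that rose was 39.9 CPM. The median log2 change was -0.18 for genes at 1 to 3 CPM and 0.15 for genes over 100 CPM. Of 1683 tested lincRNA genes 131 fell and 17 rose, and of 15591 protein-coding genes 1320 fell and 773 rose. On chromosome X 92 of 854 tested genes fell (10.8%), the highest share of the autosomes and X, beside 5.19% on chromosome 16, the lowest.

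**Figure D1:**
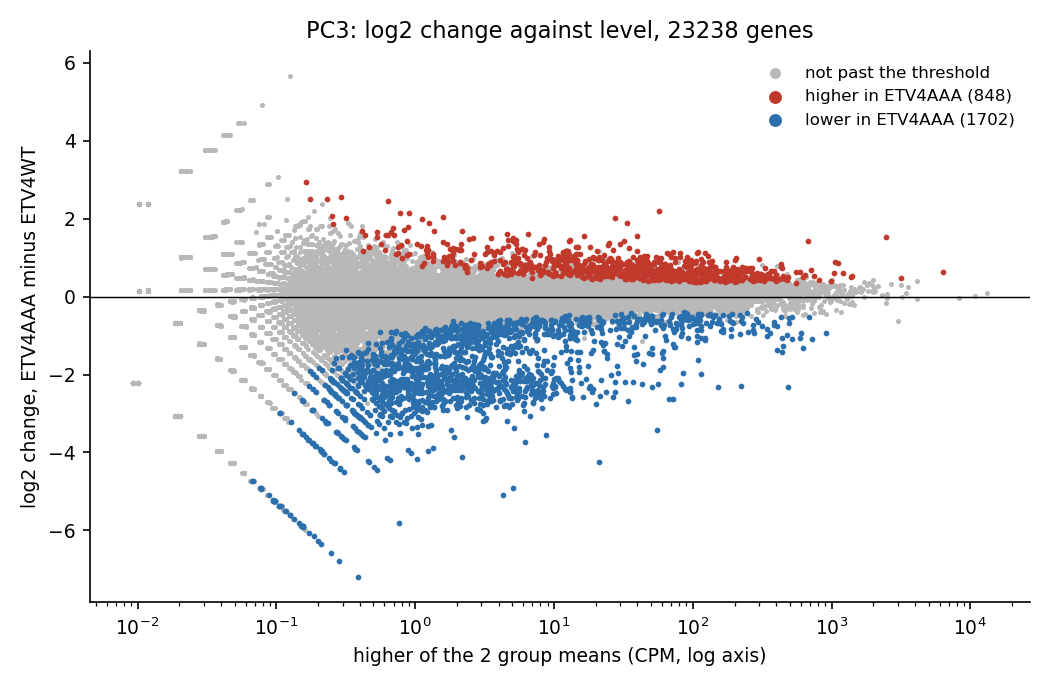
Log2 change (ETV4AAA minus ETV4WT) of each of 23238 genes in PC3 against the higher of the 2 group means in CPM (log axis). Coloured points passed the adjusted p threshold: 848 genes higher, mostly at high levels, and 1702 genes lower, mostly below 10 CPM.

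A second peak of log2 changes stood out among the falls. Of 11633 genes with a mean of at least 3 CPM in the WT-labelled pair, 195 had log2 changes between -3 and -2, and all 195 fell. This set was defined after the values were seen, so its counts are a description. Its limits also bound the ratio of the AAA-labelled to the WT-labelled level, so the narrow spread of that ratio follows from the choice. Numbers of genes per bin of 0.2 dropped to 23 at -1.8 to -1.6 and climbed again to 59 at -2.4 to -2.2. The level in the AAA-labelled pair was a median of 19.5% of the WT-labelled level over these genes, with quartiles of 17.0% and 21.8%. With eGFP it was a median of 15.2% of the WT-labelled level, with quartiles of 13.6% and 17.9%. Of these genes 22 (11.3%) lay on chromosome X, beside 3.47% of all genes at that minimum. In 22Rv1 58 of them rose and 11 fell. Counts alone do not show which cells the RNA came from. Whether RNA of cells other than PC3 took part in this set was not tested.

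**Figure D2:**
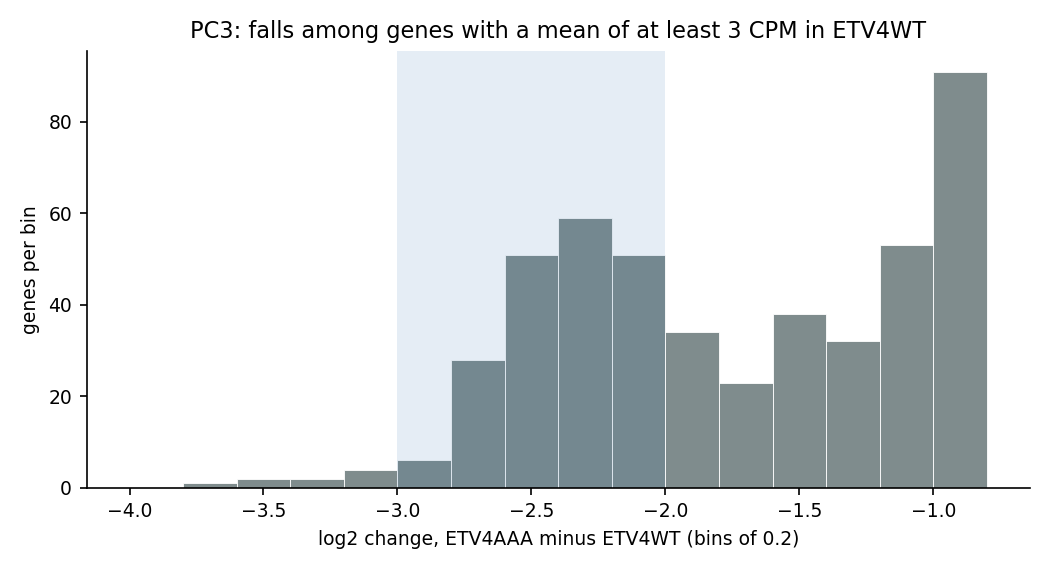
Number of genes per bin of 0.2 log2 units (ETV4AAA minus ETV4WT), for genes with a mean of at least 3 CPM in PC3 ETV4WT and log2 changes below -0.8. The shaded range from -3 to -2 holds 195 genes and peaks at 59 genes in the bin from -2.4 to -2.2.

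The 6 genes of this set named next were picked after their values were seen. IRS4, an insulin receptor substrate, stood at 80.1 and 84.3 CPM in the WT-labelled pair. It stood at 17.4 and 17.1 CPM in the AAA-labelled pair and 12.6 and 13.1 CPM with eGFP (log2 -2.25, SE 0.15, adjusted p = 5.44e-06). The WT-labelled libraries were the high ones, and the AAA-labelled libraries lay just above the control.

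AMOT, a scaffold of cell junctions and the Hippo pathway, stood at 209.7 and 235 CPM in the WT-labelled, 45.1 and 45.9 CPM in the AAA-labelled and 30.4 and 30.3 CPM in the eGFP pair (log2 -2.29, SE 0.14). LIN28B, an embryonic inhibitor of let-7 microRNA processing, stood at 24.3 and 30.7 CPM in the WT-labelled, 5.88 and 6.12 CPM in the AAA-labelled and 4.13 and 4.38 CPM in the eGFP pair. The homeobox factor HOXD13, the proteoglycan GPC3 and the endocytic receptor LRP2 changed by log2 -2.37, -2.42 and -2.58. Of all 1702 falls 643 (37.8%) had log2 changes between -3 and -2.

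Immune cell markers were at or near 0 in both pairs. The summed level of 18 such markers was 1.78 and 1.85 CPM in the WT-labelled pair and 1.69 and 1.20 CPM in the AAA-labelled pair. The T-cell genes CD3D and CD3E, the B-cell gene MS4A1 and the globin gene HBB had 0 counts in all 4 libraries. CD8A, a T-cell coreceptor and the one immune call, had 16 counts over the WT-labelled pair and 0 over the AAA-labelled pair, at least 4.66-fold lower against a floor of 3 counts over the pair. Of 10 markers of 22Rv1 3 fell, among them the protease gene TMPRSS2, and the prostate homeobox gene HOXB13 and the transporter gene SLC45A3 rose. Without ETV4AAA replicate 1 or ETV4WT replicate 2 the calls of HOXB13 and SLC45A3 were lost, and without any 1 of the 4 libraries that of TMPRSS2. All 5 calls were lost with the 4 libraries alone. The prostate protease gene KLK3 had 0 counts in all 4 libraries, where 3 counts would be the floor. The summed level of the 10 genes, mostly HOXB13, was 539.7 and 418.5 CPM in the WT-labelled pair and 858.6 and 645.1 CPM in the AAA-labelled pair. The 16 stromal and endothelial markers, many of which PC3 expresses, summed to 446.1 and 370.0 CPM in the WT-labelled and 453.3 and 378.4 CPM in the AAA-labelled pair. All 10 PC3 markers were present in the 4 libraries, and none of them passed by edgeR (4 at an unadjusted p under 0.05, 1 by DESeq2 and 1 by limma-voom). In bulk RNA fewer cells of a type and less RNA per cell cannot be told apart.

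Secreted and stress-induced genes were among those that fell most. S100P, a calcium-binding protein of many carcinomas, stood at 4.96 and 5.23 CPM in the WT-labelled pair, 0.144 and 0.191 CPM in the AAA-labelled pair and 0.986 and 0.709 CPM with eGFP (log2 -4.92, SE 0.27, adjusted p = 2.43e-06). GDF15, a secreted stress cytokine of the TGF-beta superfamily, stood at 25.7 and 16.8 CPM in the WT-labelled, 1.56 and 0.645 CPM in the AAA-labelled and 7.51 and 7.44 CPM in the eGFP pair (log2 -4.24, SE 0.39, adjusted p = 3.24e-05). For both genes the AAA-labelled libraries lay below the vector control as well as below the WT-labelled libraries.

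INHBE, an inhibin subunit induced by amino acid and reticulum stress, stood at 58.2 and 52.5 CPM in the WT-labelled, 6.55 and 3.78 CPM in the AAA-labelled and 3.62 and 3.76 CPM in the eGFP pair (log2 -3.42, SE 0.26, adjusted p = 9.43e-06). ETV4AAA replicate 2 lay at the level of the control and ETV4AAA replicate 1 above it. The chloride channel gene BEST1 (log2 -3.73, SE 0.25), the complement protease gene MASP1 (-3.56, SE 0.23) and the secreted peptide gene ADM2 (-3.06, SE 0.37) fell as well. FGFR2, a fibroblast growth factor receptor, stood at 7.92 and 8.48 CPM in the WT-labelled, 1.15 and 1.12 CPM in the AAA-labelled and 1.71 and 1.31 CPM in the eGFP pair (log2 -2.85, SE 0.26). GNG4, a G protein subunit, and ARRDC4, an arrestin-domain protein induced by glucose, fell (log2 -2.94 and -2.75). These 3 lay between -3 and -2, the range of the set described above.

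Among genes at 5 CPM or more whose libraries did not overlap, the largest rise was of FAM111B, a protease linked to DNA replication. It stood at 12 and 13.2 CPM in the WT-labelled pair, 52.3 and 62.9 CPM in the AAA-labelled pair and 45.6 and 45.9 CPM with eGFP (log2 2.19, SE 0.14, adjusted p = 5.14e-06). The WT-labelled libraries were the low ones. MYB, a transcription factor of progenitor cells, stood at 8.77 and 9.41 CPM in the WT-labelled, 32.3 and 35.1 CPM in the AAA-labelled and 29.9 and 31.7 CPM in the eGFP pair (log2 1.89, SE 0.16, adjusted p = 1.9e-05).

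NES, which encodes the intermediate filament nestin, stood at 272 and 225 CPM in the WT-labelled, 746 and 603 CPM in the AAA-labelled and 796 and 811 CPM in the eGFP pair (log2 1.44, SE 0.17, adjusted p = 0.000157). CYP1B1, a cytochrome P450 of steroid and dioxin metabolism, rose by log2 1.56 (SE 0.17), and APLN, the vascular peptide apelin, by 1.55 (SE 0.19). FGFBP1, a carrier of fibroblast growth factors, rose by 1.45 (SE 0.19). For FAM111B, MYB and NES the eGFP libraries were nearer to the AAA-labelled than to the WT-labelled pair. The receptor gene GPER1 (log2 1.48) and the epithelial secreted gene SECTM1 (2.4 and 1.21 CPM in the WT-labelled and 7.07 and 3.11 CPM in the AAA-labelled pair) also rose, but either call was lost without ETV4AAA replicate 1 or without ETV4WT replicate 2. On 4 libraries alone the calls of GPER1 and SECTM1 were lost too.

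**Figure D3:**
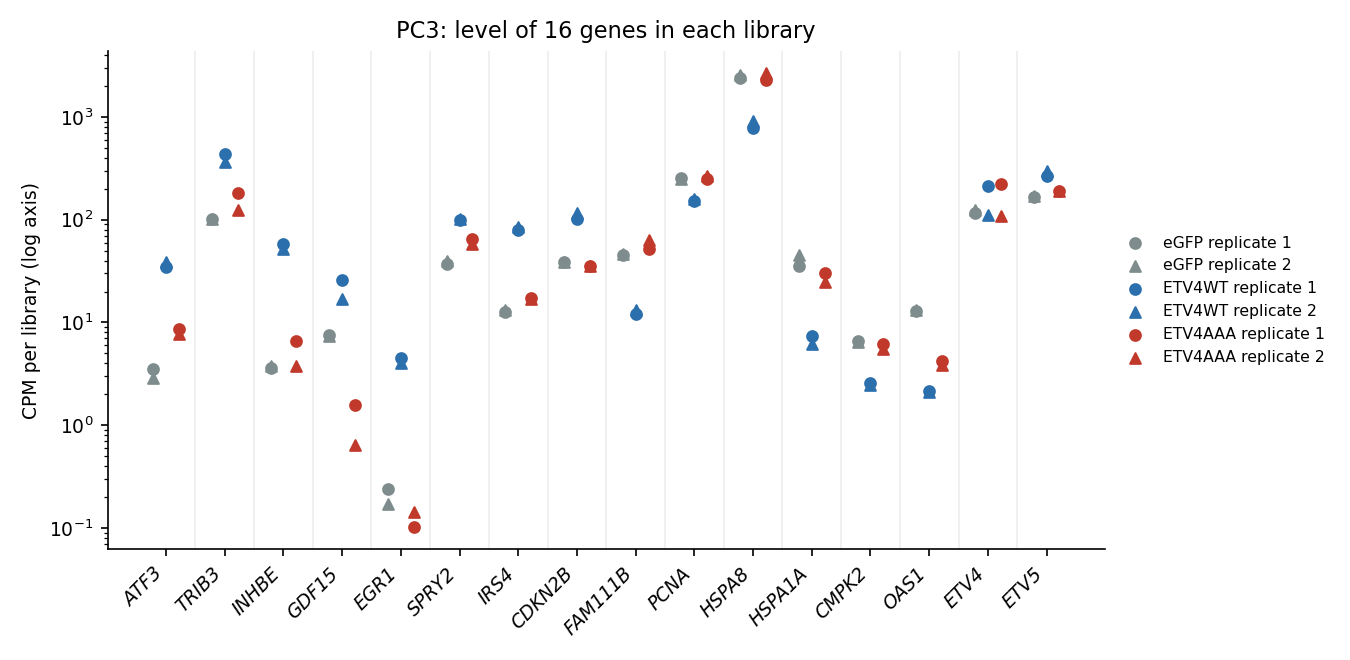
CPM (log axis) of 16 genes in each of the 6 PC3 libraries, with eGFP in grey, ETV4WT in blue and ETV4AAA in red, and replicate 1 as circles and replicate 2 as triangles. The stress genes on the left are highest in ETV4WT, FAM111B to OAS1 are lowest in ETV4WT, and ETV4 overlaps between the constructs.

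Many transcripts of the ATF4 stress response fell in the AAA-labelled pair. ATF4 is the transcription factor translated when the kinases of the integrated stress response slow protein synthesis, and it induces amino acid transport and synthesis, tRNA charging, and its own regulators. The lists of this response were written with earlier results of these data known. Of 15 ATF4-linked transcription factors and regulators 11 fell and 4 did not pass, with a median log2 change of -1.30, while 7.32% of all genes tested fell. For every list below, the shares over all genes tested are 7.32% lower and 3.65% higher. Of 22 genes of amino acid synthesis and transport 13 fell, with a median of -0.85. Of 18 aminoacyl-tRNA synthetase genes 7 fell (median -0.37), and of 10 stress-induced secreted factors 8 fell (median -1.57). With each of the 4 libraries left out in turn, the fallen numbered 9 to 11, 9 to 17, 6 to 7 and 7 to 8 in these lists. With the 4 libraries alone they numbered 6, 9, 5 and 7.

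Promoters of these genes were searched for a motif of the response. The letters TGATGNAA, a core of the amino acid response element bound by ATF4 with its partners, were searched on both strands in the 250 bases before the RefSeq start. They occurred in 2 of 13 promoters of the regulators, 2 of 15 of the amino acid genes and 1 of 7 of the secreted factors, and in 1 of 22 promoters of the unfolded protein response list described below, that of HERPUD1. Among all 13049 tested genes with a promoter 1.78% held them, beside 2.61% of 1072 that fell and 1.61% of 622 that rose. Parts of 3 such promoters outside annotated exons follow, 5′ to 3′ on the gene's strand with the matched letters in capitals, from RefSeq on GRCh38.p14. They are shown because these genes fell and hold the letters, and a match is not a site shown to be bound.
ATF3, chr1:212565157-212565332, plus strand: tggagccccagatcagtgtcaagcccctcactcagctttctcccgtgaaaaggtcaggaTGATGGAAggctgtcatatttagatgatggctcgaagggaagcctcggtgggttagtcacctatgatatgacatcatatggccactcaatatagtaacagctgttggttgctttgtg
FGF21, chr19:48755394-48755523, plus strand: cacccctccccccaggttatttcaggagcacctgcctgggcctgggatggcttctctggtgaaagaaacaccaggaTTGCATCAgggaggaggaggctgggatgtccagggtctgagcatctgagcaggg
HERPUD1, chr16:56931892-56932046, plus strand: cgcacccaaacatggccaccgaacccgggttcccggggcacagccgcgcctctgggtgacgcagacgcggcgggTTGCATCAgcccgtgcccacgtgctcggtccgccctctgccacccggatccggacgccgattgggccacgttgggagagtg

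Among the regulators, ATF3 is a stress-induced repressor. It stood at 34.9 and 38.9 CPM in the WT-labelled pair, 8.57 and 7.67 CPM in the AAA-labelled pair and 3.54 and 2.88 CPM with eGFP (log2 -2.18, SE 0.14, adjusted p = 5.77e-06), a ratio within the -3 to -2 range. TRIB3, a pseudokinase induced by ATF4 that also binds COP1, stood at 437 and 366 CPM in the WT-labelled, 184 and 125 CPM in the AAA-labelled and 102 and 101 CPM in the eGFP pair (log2 -1.38, SE 0.18, adjusted p = 0.000308). Neither gene's pairs overlapped, and the AAA-labelled libraries lay between the other groups.

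DDIT3, the CHOP factor of prolonged stress, stood at 54.2 and 48.2 CPM in the WT-labelled, 20.5 and 16.5 CPM in the AAA-labelled and 15.4 and 16.7 CPM in the eGFP pair (log2 -1.47, SE 0.17, adjusted p = 0.000187). SESN2, a leucine sensor that restrains mTORC1, stood at 100 and 71.2 CPM in the WT-labelled, 29.7 and 14.3 CPM in the AAA-labelled and 6.86 and 6.92 CPM in the eGFP pair (log2 -1.96, SE 0.29, adjusted p = 0.000886). PPP1R15A, the phosphatase subunit that ends the eIF2 block, fell (log2 -1.30, SE 0.17). ATF4 itself, named after its values were seen, stood at 713 and 658 CPM in the WT-labelled pair and 522 and 439 CPM in the AAA-labelled pair, a log2 change of -0.51 (SE 0.12), and the call was lost without ETV4AAA replicate 2, without ETV4WT replicate 1 and with the 4 libraries alone. EIF2AK4, the kinase GCN2 that senses uncharged tRNA, was at 128 and 147 CPM in the WT-labelled and 161 and 172 CPM in the AAA-labelled pair and did not pass (adjusted p = 0.207).

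Most amino acid genes named here fell by about 2-fold. The cystine transporter gene SLC7A11 stood at 615 and 822 CPM in the WT-labelled, 333 and 349 CPM in the AAA-labelled and 275 and 254 CPM in the eGFP pair (log2 -1.08, SE 0.13, adjusted p = 0.000266). PSAT1, of serine synthesis, stood at 469 and 575 CPM in the WT-labelled, 238 and 251 CPM in the AAA-labelled and 198 and 193 CPM in the eGFP pair (log2 -1.10, SE 0.13, adjusted p = 0.000212). CTH, of cysteine synthesis (log2 -1.07, SE 0.13), and the neutral amino acid transporter gene SLC1A4 (-1.28, SE 0.13) fell by similar amounts. ALDH1L2, a mitochondrial folate enzyme, fell (log2 -2.56, SE 0.18), from 18.6 and 24.6 to 3.31 and 4.02 CPM, a ratio within the -3 to -2 range. SHMT2, of mitochondrial serine conversion, did not pass (log2 -0.49, adjusted p = 0.194). Its pairs overlapped at 537 and 380 CPM in the WT-labelled and 406 and 246 CPM in the AAA-labelled pair. At each replicate number the AAA-labelled SHMT2 level was the lower, and the gene passed when no low-count filter was used. Among the tRNA-charging enzymes WARS stood at 914 and 914 CPM in the WT-labelled, 506 and 445 CPM in the AAA-labelled and 474 and 466 CPM in the eGFP pair (log2 -0.94, SE 0.11, adjusted p = 0.000123). SARS and GARS fell (log2 -1.01 and -0.93).

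FGF21, a hormone of fasting and stress, had 79 counts over the WT-labelled pair and 1 over the AAA-labelled pair, a ratio of 69.0 (95% counting interval 12 to 2761). SPX, a secreted neuropeptide, stood at 8.68 and 11.2 CPM in the WT-labelled, 2.47 and 2.08 CPM in the AAA-labelled and 1.85 and 1.42 CPM in the eGFP pair (log2 -2.12, SE 0.24), also within that range. VEGFA, the vascular growth factor, fell from 115 and 99.7 to 61.8 and 44.4 CPM (log2 -1.02, SE 0.16). The cytokine gene LIF did not pass (log2 -0.65, adjusted p = 0.101). Its pairs did not overlap, at 29.4 and 22.7 CPM in the WT-labelled and 20.4 and 12.8 CPM in the AAA-labelled pair. LIF passed with upper-quartile scaling and when no low-count filter was used.

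The unfolded protein response of the endoplasmic reticulum was split. Of 24 genes 4 fell, 1 rose and 19 did not pass, with a median log2 change of 0.04. ERN1, the IRE1 sensor kinase, stood at 58 and 64.5 CPM in the WT-labelled, 18.5 and 16.8 CPM in the AAA-labelled and 17.6 and 16.6 CPM in the eGFP pair (log2 -1.79, SE 0.15, adjusted p = 2.16e-05). XBP1, the factor whose mRNA IRE1 splices, stood at 177 and 200.5 CPM in the WT-labelled, 93.8 and 92 CPM in the AAA-labelled and 56 and 58 CPM in the eGFP pair (log2 -1.02, SE 0.12, adjusted p = 0.000133). HERPUD1, of reticulum protein degradation, fell (log2 -0.82, SE 0.11). The lumenal chaperone genes HSP90B1 (log2 0.15, adjusted p = 0.585) and CALR (0.37, 0.117) did not pass. The rise of MANF, a secreted reticulum protein (log2 0.53), and the fall of DNAJB9, a co-chaperone (-0.64), were lost in several alternatives. Without ETV4AAA replicate 2 or either ETV4WT library the MANF call ended, and without ETV4AAA replicate 1 or ETV4WT replicate 2 the DNAJB9 call did.

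The cytosolic heat shock chaperones that passed were mostly higher in the AAA-labelled pair. These proteins fold nascent and damaged proteins and are induced by HSF1. Of 18 genes 9 rose, 1 fell and 8 did not pass, with a median log2 change of 0.55, while 3.65% of all genes tested rose. HSPA8, the constitutive HSC70 chaperone, stood at 787 and 921 CPM in the WT-labelled pair, 2269 and 2656 CPM in the AAA-labelled pair and 2375 and 2568 CPM with eGFP (log2 1.53, SE 0.15, adjusted p = 4.03e-05). The AAA-labelled libraries lay at the level of the control and the WT-labelled libraries below both.

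The stress-inducible HSPA1A stood at 7.4 and 6.17 CPM in the WT-labelled, 30.5 and 24.6 CPM in the AAA-labelled and 35.5 and 45.4 CPM in the eGFP pair (log2 2.02, SE 0.26, adjusted p = 0.000314). Its copy HSPA1B shares reads with it, so how counts divide between them is uncertain. DNAJA1 and DNAJB1, co-chaperones of HSP70, rose by log2 0.96 (SE 0.15) and 0.76 (SE 0.11), and the DNAJB1 call was lost with the 4 libraries alone. HSPD1, the mitochondrial HSP60, did not pass (log2 0.15, adjusted p = 0.615). With each library left out 6 to 8 of these genes rose, without ETV4AAA replicate 2 the fewest, and with the 4 libraries alone 3 rose. The heat shock element (GAA, TTC and GAA with 2 bases between neighbours, both strands) was found in 2 of 16 promoters of this list, HSPA8 among them, beside 0.337% of all tested promoters.

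Output genes of ERK signalling were mostly lower where they changed. Of 28 genes 9 fell, 1 (CCND1) rose and 18 did not pass, with a median log2 change of -0.30. Over all genes tested 7.32% fell and 3.65% rose. EGR1, an immediate early zinc finger factor, stood at 4.48 and 4.06 CPM in the WT-labelled pair, 0.103 and 0.143 CPM in the AAA-labelled pair and 0.242 and 0.172 CPM with eGFP (log2 -5.10, SE 0.26, adjusted p = 2.22e-06). DUSP5, a nuclear phosphatase of ERK, stood at 116 and 115 CPM in the WT-labelled, 69.3 and 67.3 CPM in the AAA-labelled and 52.4 and 53.1 CPM in the eGFP pair (log2 -0.76, SE 0.12, adjusted p = 0.00113). SPRY2, a feedback inhibitor of receptor tyrosine kinase signalling, stood at 100.1 and 102 CPM in the WT-labelled, 64.8 and 58.7 CPM in the AAA-labelled and 37.4 and 39.4 CPM in the eGFP pair (log2 -0.71, SE 0.12, adjusted p = 0.00183). At DUSP5 and SPRY2 the AAA-labelled libraries lay between the other groups without overlap.

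HBEGF, an EGF receptor ligand, stood at 80.3 and 86.7 CPM in the WT-labelled, 45.8 and 41.9 CPM in the AAA-labelled and 14.8 and 14 CPM in the eGFP pair (log2 -0.93, SE 0.15, adjusted p = 0.00172). Of 13 genes of the EGF family and its regulators, HBEGF, the ligand gene AREG (log2 -1.22, SE 0.24) and the receptor inhibitor gene ERRFI1 (-1.33, SE 0.13) fell. ERRFI1 stood at 556 and 699 CPM in the WT-labelled, 233 and 266 CPM in the AAA-labelled and 124 and 122 CPM in the eGFP pair. SPRY4, another feedback inhibitor, did not pass (log2 -0.22, unadjusted 95% interval -0.51 to 0.07). With the 4 libraries alone 4 ERK output genes fell and the call of SPRY2 was lost.

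Among PEA3 factors ETV5 stood at 268 and 301 CPM in the WT-labelled pair, 193 and 191 CPM in the AAA-labelled pair and 167 and 168 CPM with eGFP (log2 -0.57, SE 0.12, adjusted p = 0.0103). Its pairs did not overlap, and the call was lost without ETV4AAA replicate 1, without ETV4WT replicate 2 and with the 4 libraries alone. ETV1 was at 63.3 and 76.6 CPM in the WT-labelled and 71 and 76.2 CPM in the AAA-labelled pair, which overlapped. Of 20 other ETS factors ELF4 rose (log2 1.02, SE 0.18, from 23.1 and 17.9 to 45.5 and 37.5 CPM), and FLI1, a factor of blood and endothelium, fell at low level. The ELF4 call was lost with the 4 libraries alone. The FLI1 call (log2 -1.89) was lost without either ETV4AAA library and without ETV4WT replicate 2. ETS1 was at 167 and 198 CPM in the WT-labelled and 167 and 178 CPM in the AAA-labelled pair and did not pass (adjusted p = 0.787).

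Of 10 genes of the COP1 ligase and its partners TRIB3, COP1 and DET1 fell. COP1, the ligase subunit that recognises PEA3 factors, stood at 12.1 and 16 CPM in the WT-labelled, 6.82 and 7.7 CPM in the AAA-labelled and 6.4 and 5.63 CPM in the eGFP pair (log2 -0.95, SE 0.17, adjusted p = 0.00368). DET1, its adaptor, fell (log2 -0.79, SE 0.17), a call lost without ETV4AAA replicate 2. The COP1 and DET1 calls were also lost with the 4 libraries alone. The scaffold gene DDB1 did not pass (log2 0.26, adjusted p = 0.244).

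Of 24 reported targets of PEA3 factors 5 fell, 2 rose and 17 did not pass, with a median log2 change of -0.14. With any 1 of the 4 libraries left out 3 fell, and the rises numbered 0 without ETV4AAA replicate 1 and 1 without any other. CCND2, a D-type cyclin, stood at 16.3 and 16.3 CPM in the WT-labelled, 2.79 and 2.63 CPM in the AAA-labelled and 1.89 and 1.74 CPM in the eGFP pair (log2 -2.58, SE 0.24, adjusted p = 3.54e-05), a ratio within the -3 to -2 range. MMP10, a stromelysin, stood at 6.89 and 8.32 CPM in the WT-labelled, 2.44 and 2.06 CPM in the AAA-labelled and 3 and 2.81 CPM in the eGFP pair (log2 -1.75, SE 0.20, adjusted p = 0.000159). MMP14, a membrane protease, overlapped between the pairs at 236 and 155 CPM in the WT-labelled and 258 and 163 CPM in the AAA-labelled pair. At each replicate number its AAA-labelled library was slightly the higher. Vimentin (VIM) did not pass (log2 0.14, 95% interval -0.13 to 0.42). The ETS letters CCGGAAGT were found in 3.05% of the promoters of genes that rose and 3.17% of those that fell, beside 5.95% of all tested.

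The genes of DNA replication that passed were all higher in the AAA-labelled pair. Of 36 genes of replication and the G1/S transition 17 rose and 19 did not pass, with a median log2 change of 0.48, while 3.65% of all genes tested rose. PCNA, the sliding clamp of DNA polymerases, stood at 153 and 158 CPM in the WT-labelled pair, 251 and 266 CPM in the AAA-labelled pair and 253 and 252 CPM with eGFP (log2 0.74, SE 0.12, adjusted p = 0.00149). FEN1, the flap endonuclease, stood at 115 and 92.5 CPM in the WT-labelled, 226 and 183 CPM in the AAA-labelled and 216 and 216 CPM in the eGFP pair (log2 0.98, SE 0.13, adjusted p = 0.000514). ORC1, of the origin recognition complex, stood at 24 and 21.6 CPM in the WT-labelled, 50.5 and 43.7 CPM in the AAA-labelled and 53.7 and 57.4 CPM in the eGFP pair (log2 1.05, SE 0.14, adjusted p = 0.000503). In all 3 genes the WT-labelled libraries were the low ones and did not overlap the others.

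CLSPN, which encodes the checkpoint adaptor claspin, rose by log2 0.89 (SE 0.14). MCM7, a helicase subunit, was at 384 and 276 CPM in the WT-labelled and 453 and 303 CPM in the AAA-labelled pair. Its pairs overlap, though the AAA-labelled library was the higher at each replicate number, and it did not pass (adjusted p = 0.603). RRM1, of nucleotide synthesis, did not pass either (log2 0.13, 95% interval -0.18 to 0.44). With each library left out 14 to 16 replication genes rose, with upper-quartile scaling 12, and with the 4 libraries alone 3, the calls of PCNA and CLSPN among the lost. The E2F letters TTTGGCGC were found on either strand in 5 of 31 promoters of this list and 0.805% of all tested, and none of these 5 genes was called.

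Of 30 mitosis genes 4 rose and 26 did not pass, with a median log2 change of 0.26. BUB1B, a spindle checkpoint kinase, stood at 73.7 and 85.5 CPM in the WT-labelled pair and 120.4 and 138 CPM in the AAA-labelled pair (log2 0.70, SE 0.13, adjusted p = 0.00418). CDC20, the activator of the anaphase-promoting complex, rose by log2 0.89 (SE 0.20), and ANLN, of the cleavage furrow, by 0.79 (SE 0.15). Without ETV4AAA replicate 1 or ETV4WT replicate 2 the CDC20 call ended, without ETV4AAA replicate 2 the ANLN call, and with the 4 libraries alone all 4 mitosis calls. With a library left out 2 to 3 mitosis genes rose, 2 of them without ETV4AAA replicate 1 or without ETV4AAA replicate 2. TOP2A and CENPF, both high in dividing cells, did not pass (log2 0.07 and 0.17).

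Of 12 CDK inhibitors and cyclins 5 rose and 2 fell. Without ETV4AAA replicate 1 or ETV4WT replicate 2 only 2 rose, and with upper-quartile scaling or without ETV4AAA replicate 2 only 3. CDKN2B, the p15 inhibitor of CDK4 and CDK6, stood at 103 and 116 CPM in the WT-labelled, 35.6 and 35.7 CPM in the AAA-labelled and 39 and 38.7 CPM in the eGFP pair (log2 -1.62, SE 0.13, adjusted p = 1.31e-05). The AAA-labelled libraries lay just below the control. CCNE2, a cyclin of S phase entry, rose by log2 1.09 (SE 0.21). CCND1, a D-type cyclin downstream of ERK, stood at 208 and 213 CPM in the WT-labelled and 302 and 304 CPM in the AAA-labelled pair (log2 0.53, SE 0.12, adjusted p = 0.0112), a call lost without ETV4AAA replicate 2, without ETV4WT replicate 1 and with upper-quartile scaling. CDKN1A, the p21 inhibitor, rose by log2 0.70 (SE 0.16), which was lost without ETV4AAA replicate 1 or ETV4WT replicate 2. The calls of CCNE2, CCND1 and CDKN1A were lost with the 4 libraries alone.

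BTG2, an antiproliferative gene, stood at 3.92 and 3.24 CPM in the WT-labelled, 0.493 and 0.669 CPM in the AAA-labelled and 0.543 and 0.645 CPM in the eGFP pair (log2 -2.63, SE 0.21), within the -3 to -2 range.

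**Figure D4:**
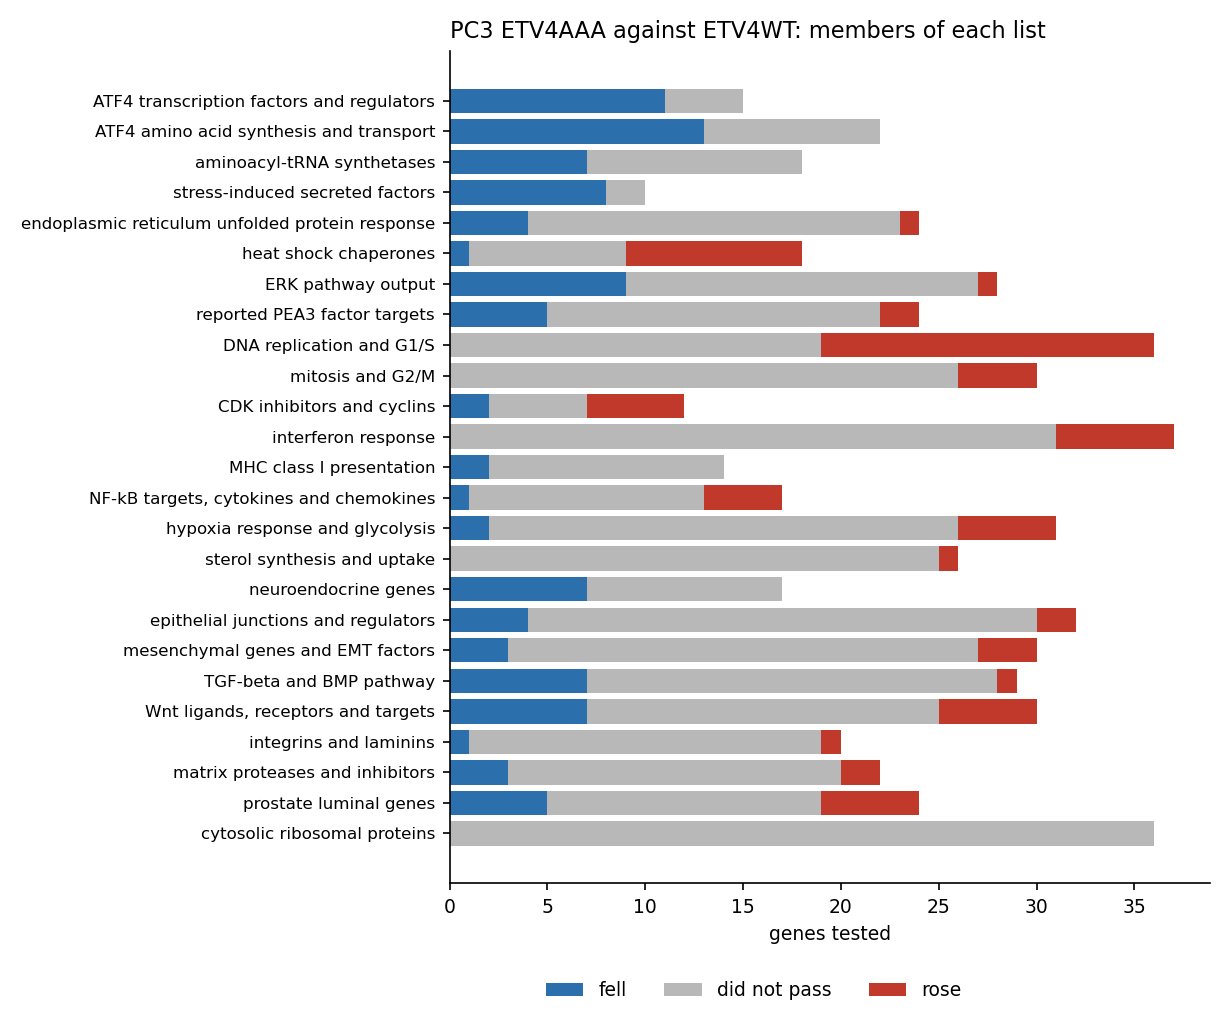
Number of tested members of the main gene lists that fell (blue), did not pass (grey) or rose (red) in PC3 ETV4AAA against ETV4WT. The calls in the stress lists are mostly falls, those among DNA replication, interferon and heat shock genes mostly rises, and 36 ribosomal protein genes hold no call.

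Interferon-stimulated genes were higher where they changed. Of 37 genes 6 rose and 31 did not pass, with a median log2 change of 0.29, while 3.65% of all genes tested rose. CMPK2, a mitochondrial nucleotide kinase induced by interferon, stood at 2.56 and 2.47 CPM in the WT-labelled pair, 6.23 and 5.47 CPM in the AAA-labelled pair and 6.64 and 6.47 CPM with eGFP (log2 1.22, SE 0.16, adjusted p = 0.000424). PARP9, an antiviral ADP-ribosyltransferase, stood at 36.4 and 42.2 CPM in the WT-labelled, 62.3 and 69.8 CPM in the AAA-labelled and 69.9 and 70.1 CPM in the eGFP pair (log2 0.75, SE 0.13, adjusted p = 0.00335). In both the AAA-labelled libraries lay just under or beside the control.

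OAS1 and OAS3, synthetases that activate the antiviral RNase L, kept a larger distance from the control. OAS1 stood at 2.14 and 2.09 CPM in the WT-labelled, 4.21 and 3.9 CPM in the AAA-labelled and 13.1 and 13.2 CPM in the eGFP pair (log2 0.94, SE 0.25), and OAS3 at 10.8 and 8.32 CPM in the WT-labelled, 17.2 and 14.5 CPM in the AAA-labelled and 34.2 and 36.5 CPM in the eGFP pair (log2 0.73, SE 0.18). Their AAA-labelled levels were above the WT-labelled and below the eGFP levels. With each library left out 3 to 4 of these genes rose, and with the 4 libraries alone 1, CMPK2. With upper-quartile scaling 3 rose. The OAS1 call was lost without any 1 of the 4 libraries, and the OAS3 call without ETV4AAA replicate 1 or ETV4WT replicate 2.

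A core of the interferon-stimulated response element (GAAA and GAAA with 2 bases between) was found on either strand in 17 of 28 promoters of this list and in 2.45% of all tested promoters. The part of the OAS3 promoter outside annotated exons is shown with the match in capitals, plus strand, because OAS3 rose.
OAS3, chr12:112938224-112938351, plus strand: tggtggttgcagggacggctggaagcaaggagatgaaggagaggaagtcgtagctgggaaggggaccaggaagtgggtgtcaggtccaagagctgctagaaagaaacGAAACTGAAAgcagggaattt

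Of 14 genes of MHC class I presentation, which shows peptides to T cells, HLA-B and HLA-C fell and 12 did not pass. HLA-B stood at 4.5 and 3.12 CPM in the WT-labelled, 0.699 and 0.359 CPM in the AAA-labelled and 0.584 and 0.731 CPM in the eGFP pair (log2 -2.82, SE 0.28, adjusted p = 5.75e-05), and HLA-C at 8.03 and 5.83 CPM in the WT-labelled, 1.85 and 1.22 CPM in the AAA-labelled and 1.65 and 1.42 CPM in the eGFP pair (log2 -2.17, SE 0.23). Both lie within the -3 to -2 range and at low level. B2M, the light chain, did not pass (log2 0.16, adjusted p = 0.63). Reads of these related genes may be assigned to each other.

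Of 17 tested NF-kB targets, cytokines and chemokines 4 rose and 1 fell. NFKBIA, the inhibitor that holds NF-kB in the cytoplasm, stood at 21.2 and 15.7 CPM in the WT-labelled, 39.5 and 35.4 CPM in the AAA-labelled and 19.3 and 20.6 CPM in the eGFP pair (log2 1.02, SE 0.15, adjusted p = 0.000817). Here the eGFP libraries lay at the WT-labelled level. CXCL8, a neutrophil chemokine, stood at 46.9 and 59.3 CPM in the WT-labelled, 27.8 and 30.6 CPM in the AAA-labelled and 4.47 and 4.08 CPM in the eGFP pair (log2 -0.86, SE 0.19), a call lost without ETV4AAA replicate 1 or ETV4WT replicate 2. With the 4 libraries alone the calls of NFKBIA and CXCL8 were both lost. With any 1 of the 4 libraries left out 2 genes of this list rose.

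Few epithelial and mesenchymal identity genes passed. Of 32 genes of epithelial junctions and their regulators 4 fell and 2 rose, and of 30 mesenchymal genes and factors 3 fell and 3 rose, while 7.32% of all genes tested fell and 3.65% rose. Of the mesenchymal genes 0 rose without ETV4AAA replicate 1, 1 without any other of the 4 libraries and 0 with the 4 libraries alone. DSP, the desmosomal protein desmoplakin, stood at 51.6 and 60.3 CPM in the WT-labelled, 11.5 and 12.2 CPM in the AAA-labelled and 8.62 and 10.1 CPM in the eGFP pair (log2 -2.25, SE 0.18, adjusted p = 1.32e-05), a ratio within the -3 to -2 range. CLDN1, of tight junctions, stood at 25.6 and 33.5 CPM in the WT-labelled, 13.6 and 15.2 CPM in the AAA-labelled and 29.4 and 28.6 CPM in the eGFP pair (log2 -1.03, SE 0.18, adjusted p = 0.00277). CDH1, E-cadherin, stood at 9.9 and 10.1 CPM in the WT-labelled, 6.21 and 6.53 CPM in the AAA-labelled and 14.8 and 14.5 CPM in the eGFP pair (log2 -0.65, SE 0.12, adjusted p = 0.00426). At CLDN1 and CDH1 the AAA-labelled libraries lay below both other groups.

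ZEB2, a repressor of epithelial genes, fell from 6 and 6.53 to 2.38 and 2.63 CPM (log2 -1.32, SE 0.20), with 3.99 and 3.87 CPM in the control. With the 4 libraries alone the calls of CLDN1 and CDH1 were lost. KRT18, a simple epithelial keratin, overlapped between the pairs at 219 and 152 CPM in the WT-labelled and 290.0 and 181 CPM in the AAA-labelled pair. Within each replicate number the AAA-labelled library was the higher.

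Neuroendocrine genes changed in 1 direction and at low level. Of 17 tested genes 7 fell and 10 did not pass, with a median log2 change of -1.20, and 5 of the 7 lay between -3 and -2. NCAM1, a neural adhesion protein, stood at 3.12 and 3.36 CPM in the WT-labelled, 0.514 and 0.215 CPM in the AAA-labelled and 0.342 and 0.43 CPM in the eGFP pair (log2 -3.11, SE 0.29, adjusted p = 3.68e-05). SYP, synaptophysin of secretory vesicles, stood at 3.25 and 2.23 CPM in the WT-labelled, 1.46 and 0.908 CPM in the AAA-labelled and 1.57 and 1.66 CPM in the eGFP pair (log2 -1.20, SE 0.22, a call lost with the 4 libraries alone). UCHL1, a ubiquitin hydrolase of neurons, did not pass (log2 0.22, adjusted p = 0.365). Without ETV4AAA replicate 1 the fallen numbered 3, and with the 4 libraries alone 2.

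Of 29 genes of the TGF-beta and BMP pathway 7 fell and 1 rose. BMP7, a ligand, and ID4, a BMP-induced inhibitor, fell from 5.82 and 5.47 to 1.21 and 0.885 CPM and from 7.82 and 8.32 to 1.21 and 1.39 CPM, both by ratios within the -3 to -2 range. TGFBR2, the type II receptor, did not pass (log2 0.21, adjusted p = 0.47). Of 30 Wnt ligands, receptors and targets 7 fell and 5 rose. The receptor gene FZD7 fell from 2.96 and 3.42 to 0.74 and 0.789 CPM, and the receptor gene FZD1 rose from 4.55 and 3.64 to 8.9 and 9.47 CPM (log2 1.16, SE 0.18), a call lost with the 4 libraries alone. With a library left out 2 to 3 Wnt genes rose and 5 to 6 fell, 2 and 5 without either ETV4AAA library and 2 and 6 without ETV4WT replicate 2. Of the 7 Wnt falls 6 lay between -3 and -2, as did 3 of the 7 TGF-beta falls. With each library left out 4 to 5 of the TGF-beta and BMP genes fell, 4 of them without ETV4AAA replicate 1, ETV4AAA replicate 2 or ETV4WT replicate 2.

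Genes of matrix and adhesion mostly did not pass, beside 3.65% of all genes tested that rose and 7.32% that fell. Of 20 integrin and laminin genes 1 rose and 1 fell, and both calls were lost without either ETV4AAA library or ETV4WT replicate 1. The fall was also lost without ETV4WT replicate 2, and the integrin genes ITGA6 and ITGB1 did not pass (log2 0.21 and 0.10). Of 22 matrix proteases and inhibitors 3 fell and 2 rose, and 1 rose without ETV4AAA replicate 2, without ETV4WT replicate 1 or with the 4 libraries alone. TIMP3, a protease inhibitor, stood at 6.37 and 6.07 CPM in the WT-labelled, 1.11 and 0.98 CPM in the AAA-labelled and 0.805 and 0.752 CPM in the eGFP pair (log2 -2.57, SE 0.19, adjusted p = 9.07e-06), a ratio within the -3 to -2 range. ADAM19, a membrane protease, stood at 62.2 and 54.2 CPM in the WT-labelled, 123 and 106 CPM in the AAA-labelled and 122 and 127 CPM in the eGFP pair (log2 0.98, SE 0.13, adjusted p = 0.000543). The collagenase gene MMP13 did not pass (log2 -0.61, adjusted p = 0.0712).

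Prostate luminal and basal genes had no common direction in PC3. Of 24 luminal genes 5 rose and 5 fell (median log2 0.14), with 3 of the falls between -3 and -2. There were 0 luminal rises and 1 fall with the 4 libraries alone, and 0 and 2 with the 6 PC3 libraries alone. Of 15 basal genes 1 rose and 2 fell. With a library left out 2 to 3 luminal genes rose and 2 to 3 fell, with any of the 4. The basal rise was lost without either ETV4AAA library, without ETV4WT replicate 2 and with the 4 libraries alone. The basal genes JAG1, a Notch ligand, and PDPN, the mucin-like podoplanin, fell (log2 -0.74, SE 0.15 and -2.78, SE 0.32). The PDPN change lies within the -3 to -2 range.

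Metabolic lists were mostly below the threshold. Of 26 sterol genes 1 rose, a call lost with the 4 libraries alone, while 2 rose without ETV4AAA replicate 2 and 3 without ETV4WT replicate 1. Of 31 genes of the hypoxia response and glycolysis 5 rose and 2 fell, beside 3.65% and 7.32% of all genes tested. At an unadjusted p under 0.05, 9 sterol genes and 12 of the hypoxia and glycolysis genes were higher in the AAA-labelled pair. The carbonic anhydrase gene CA12 stood at 81.6 and 82.8 CPM in the WT-labelled, 142 and 137 CPM in the AAA-labelled and 149 and 152 CPM in the eGFP pair (log2 0.76, SE 0.11, adjusted p = 0.000592). The glycolytic gene LDHA did not pass (log2 0.40, 95% interval 0.09 to 0.70). With each library left out 1 to 4 of these genes rose, 1 without ETV4AAA replicate 1 or ETV4WT replicate 2 and 3 without ETV4AAA replicate 2.

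No call was made among 36 cytosolic ribosomal protein genes, 13 mitochondrially encoded transcripts and 13 fatty acid synthesis genes by edgeR. Their median log2 changes were -0.05, 0.03 and 0.19. At an unadjusted p under 0.05 edgeR counted 0, 0 and 3 genes in these lists, and DESeq2 and limma-voom each called 0, 0 and 1.

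The same contrast in 22Rv1 shares no library with PC3 and gave a different picture. There 5455 genes differed (23.5%), 3219 higher (13.9%) and 2236 lower (9.62%) in the libraries labelled ETV4AAA. Of the PC3 calls 941 (36.9%) were also called in 22Rv1, which is 17.3% of the 22Rv1 calls. Of these 296 had the same direction and 645 the opposite, with 225 PC3 rises that fell in 22Rv1 and 420 PC3 falls that rose there. Over 8221 genes at 10 CPM or more in both lines the changes had a Pearson correlation of -0.14 and a Spearman correlation of -0.17 across genes, which are not independent. An interaction contrast tested the difference itself, PC3 minus 22Rv1, and 4872 genes passed (21.0%), 1763 of them among the 2550 PC3 calls. Without 22Rv1 ETV4AAA replicate 1 the 22Rv1 calls numbered 3437.

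Replication and mitosis genes differed most regularly between the lines. In 22Rv1 34 of 36 replication genes fell (median log2 -1.01) and 30 of 30 mitosis genes fell (median -0.99). The difference passed for 33 and 30 of these genes. FAM111B changed by log2 -1.17 in 22Rv1, a difference between the lines of 3.35 (SE 0.19, adjusted p = 3.16e-07). PCNA changed by log2 -1.18 there, a difference of 1.91 (SE 0.16, adjusted p = 7.22e-06).

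The ATF4 regulators also differed between the lines. In 22Rv1 4 rose and 3 fell of the 15, with a median log2 change of -0.11, and the difference passed for 11. TRIB3 rose by log2 1.25 in 22Rv1, a difference of -2.62 (SE 0.25, adjusted p = 1.42e-05), and GDF15 rose by 2.93, a difference of -7.17 (SE 0.51, adjusted p = 1.6e-06). PSAT1 fell in both lines (log2 -0.81 in 22Rv1), and the difference did not pass (-0.28, SE 0.19, adjusted p = 0.332). SLC7A11 rose by log2 1.06 there, a difference of -2.13 (SE 0.19, adjusted p = 1.01e-05). Of 18 heat shock genes 2 rose and 2 fell in 22Rv1, and HSPA8 changed by -0.21 there, a difference of 1.74 (SE 0.20, adjusted p = 8.1e-05).

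Adhesion and protease genes rose in 22Rv1. There 15 of 20 integrin and laminin genes and 16 of 22 matrix proteases and inhibitors rose, with median log2 changes of 1.01 and 1.77, and the difference passed for 11 and 15. TIMP3, which fell in PC3, rose in 22Rv1 from a mean of 0.178 CPM with ETV4WT to 16 CPM with ETV4AAA, a difference between the lines of -9.03 (SE 0.31, adjusted p = 2.62e-08). FAT3, a large protocadherin, stood at 4.46 and 6.79 CPM in the WT-labelled and 1.05 and 1.17 CPM in the AAA-labelled PC3 pair (log2 -2.34). In PC3 FAT3, like TIMP3, lay within the -3 to -2 range. FAT3 rose in 22Rv1 from a mean of 0.235 to 13.5 CPM, a difference of -8.18 (SE 0.44, adjusted p = 2.05e-07). The 10 PC3 markers summed to 303.4 and 305.4 CPM in the 22Rv1 libraries labelled ETV4WT, 502.4 and 496.5 CPM in those labelled ETV4AAA and 174.7 and 183.6 CPM with eGFP. These marker levels move with the 22Rv1 labels, and their part in the differences between the lines was not tested.

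**Figure D5:**
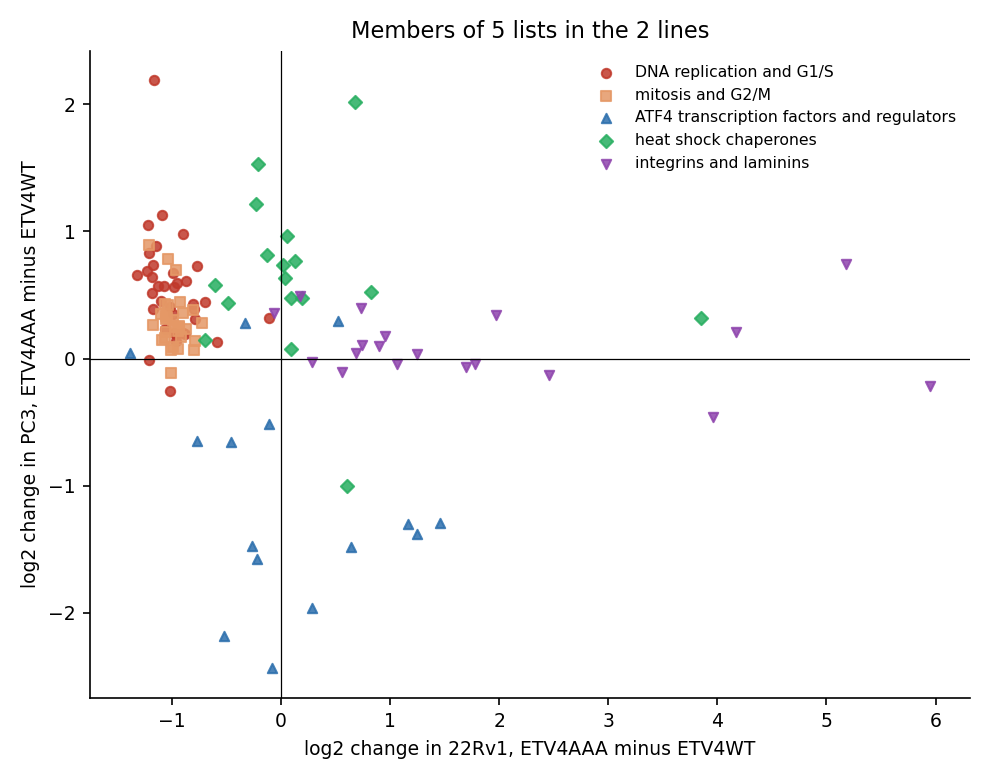
Log2 change (ETV4AAA minus ETV4WT) in PC3 (vertical axis) against that in 22Rv1 (horizontal axis) for members of 5 lists with over 30 counts pooled over the 4 PC3 libraries. Replication and mitosis genes lie mostly above 0 in PC3 and below 0 in 22Rv1, where 34 of 36 and 30 of 30 fell, and integrins and laminins spread to the right.

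The positions of the genes on which the results turn are given on GRCh38 from GENCODE 29. ETV4 (ENSG00000175832) lies on chromosome 17 from 43527844 to 43579620, ETV5 (ENSG00000244405) on chromosome 3 from 186046308 to 186110318 and ATF3 (ENSG00000162772) on chromosome 1 from 212565334 to 212620777. TRIB3 (ENSG00000101255) lies on chromosome 20 from 362835 to 397559, GDF15 (ENSG00000130513) on chromosome 19 from 18374731 to 18389176 and INHBE (ENSG00000139269) on chromosome 12 from 57452323 to 57459280. IRS4 (ENSG00000133124) lies on chromosome X from 108732482 to 108736409, FAM111B (ENSG00000189057) on chromosome 11 from 59107185 to 59127410 and HSPA8 (ENSG00000109971) on chromosome 11 from 123057489 to 123063230.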

How the data were processed

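Poly A RNA-seq was run on 12 libraries, 2 per construct in PC3 and 22Rv1. The deposited table holds whole-number counts per Ensembl gene, made by the authors from reads aligned with STAR 2.5.3a to GRCh38 after FastQC 0.11.9, per the submitters' processing notes. The sources used here do not name the counting program, strand setting or annotation release, so reads of overlapping, antisense or near-identical genes cannot be told apart. The labels' protocols also describe a single-cell method, which is not analysed here.

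Samples were grouped by the line and construct in their labels. Of 58302 gene IDs 99.55% had a name in GENCODE 29. In R 4.3.3 the counts of all 12 libraries were fitted with edgeR 4.0.16 (filterByExpr, TMM scaling, quasi-likelihood test, 6 residual degrees of freedom, 1 term per line and construct), which gave a biological coefficient of variation of 0.149. Adjusted p-values are Benjamini-Hochberg over 23238 genes, standard errors are the log2 change divided by the root of F, and 95% intervals are unadjusted and use edgeR's total degrees of freedom. A floor is 3 counts, and ratios and intervals from counts cover counting error only. The code was tested on simulated data.

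The genes and lists were chosen with earlier results of these data known. Genes named were ETV4, ETV1, ETV5, the 12 largest rises and falls at 5 CPM or more whose libraries did not overlap, the 6 largest differences between lines in each direction, and, for each list, at most 5 called members by lowest adjusted p and at most 2 others by highest mean level. A selection of these is given, and exceptions are marked in the text or are marker genes at 0. Promoters are RefSeq's on GRCh38.p14, matched by symbol for 13049 tested genes and searched over 250 bases before the start. Alternatives were DESeq2 1.42.0 size factors and Wald test, limma-voom (limma 3.58.1), upper-quartile scaling, other filters, fewer libraries, a replicate block and libraries left out.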

Additional observations from a re-analysis of the deposited data

Results flagged for a closer look

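The effect of ETV4AAA against ETV4WT differed between PC3 and 22Rv1 for 100 of the genes named, by edgeR's interaction contrast (adjusted p under 0.05). Values in brackets are differences of log2 changes, PC3 minus 22Rv1, so a negative value is a change lower in PC3. Differences of CD8A and FGF21, with 0 or 1 count in PC3 ETV4AAA, depend on the prior count of the fit. A gene on several lists is given once.

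Among the stress genes the PC3 change was the lower for FGF21 (-8.64), GDF15 (-7.17), SPX (-3.84), INHBE (-3.31), ADM2 (-2.71), TRIB3 (-2.62), ERN1 (-2.47) and PPP1R15A (-2.46). It was also lower for SESN2 (-2.24), SLC7A11 (-2.13), ALDH1L2 (-1.86), LIF (-1.75), ATF3 (-1.66), CTH (-1.36), DNAJB9 (-1.25) and DDIT3 (-1.2). Further lower values were those of XBP1 (-0.954), SARS (-0.946), WARS (-0.879), VEGFA (-0.817), HERPUD1 (-0.751), GARS (-0.713) and SLC1A4 (-0.67). Of the stress genes the PC3 change was the higher for MANF (0.977) and EIF2AK4 (0.608).

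Among ERK output genes, PEA3 and ETS factors, their reported targets and the COP1 ligase the PC3 change was the lower for AREG (-6.83), SPRY4 (-4.53), MMP13 (-3.77), DUSP5 (-3.7), EGR1 (-3.66) and MMP10 (-3.31). It was also lower for SPRY2 (-3.09), ERRFI1 (-2.44), MMP14 (-1.62), COP1 (-1.05) and HBEGF (-1.02). Of ERK output genes, PEA3 and ETS factors, their reported targets and the COP1 ligase the PC3 change was the higher for ELF4 (1.51), ETV1 (1.18) and CCND1 (1.01).

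Among genes of replication, mitosis and the cell cycle the PC3 change was the lower for CDKN2B (-3.97) and BTG2 (-2.43). Of genes of replication, mitosis and the cell cycle the PC3 change was the higher for FAM111B (3.35), ORC1 (2.27), CDC20 (2.11), CCNE2 (2.06), CLSPN (2.04), PCNA (1.91) and FEN1 (1.88). It was also higher for ANLN (1.83), BUB1B (1.66), CDKN1A (1.17), CENPF (1.09), MCM7 (1.08), TOP2A (1.02) and RRM1 (0.724).

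Of heat shock chaperones the PC3 change was the higher for HSPA8 (1.74), HSPA1A (1.34), HSPA1B (0.939), DNAJA1 (0.906), HSPD1 (0.849) and DNAJB1 (0.633).

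Among interferon, MHC class I and NF-kB genes the PC3 change was the lower for HLA-B (-5.63), CXCL8 (-5.53) and HLA-C (-4.04). Of interferon, MHC class I and NF-kB genes the PC3 change was the higher for OAS3 (1.9), PARP9 (1.15) and CMPK2 (0.732).

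Among identity, signalling and matrix genes the PC3 change was the lower for TIMP3 (-9.03), CLDN1 (-5.42), CD8A (-5.37), BMP7 (-4.73), NCAM1 (-4.32), JAG1 (-4) and ITGA6 (-3.97). It was also lower for FZD7 (-2.8), TGFBR2 (-2.47), ID4 (-2.16), DSP (-2.07), SYP (-1.09), CDH1 (-0.806) and ITGB1 (-0.797). Of identity, signalling and matrix genes the PC3 change was the higher for SLC45A3 (1.9).

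Of metabolic genes the PC3 change was the higher for CA12 (1.04) and LDHA (0.927).

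Among the other named genes the PC3 change was the lower for FAT3 (-8.18), GPC3 (-6.57), S100P (-5.97), MASP1 (-3.94), BEST1 (-3.82) and HOXD13 (-3.57). It was also lower for IRS4 (-3.57), ARRDC4 (-2.36), AMOT (-2.33), GNG4 (-2.23) and LRP2 (-1.99). Of the other named genes the PC3 change was the higher for SECTM1 (2.46), GPER1 (2.45), NES (1.94), MYB (1.04) and CYP1B1 (0.863).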

How the results depend on the processing

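The number of genes called in PC3 was within 1.5 times of 2550 with DESeq2's size factors (2556), upper-quartile scaling (2432), no low-count filter (2838), a floor of 1 CPM (2399), DESeq2's Wald test (2379) and limma-voom (2806). It was 1657 with the 6 PC3 libraries alone (405 higher and 1252 lower) and 959 with only the 4 libraries compared, 957 of them among the 2550, where fewer libraries give the spread. Leaving out 1 library gave 1648 to 1887 calls, and keeping only replicate 1 or only replicate 2 of both constructs gave 1341 and 1347, where the lone library of a group is taken to vary like the other groups. Calls of at least 2-fold numbered 1474, 930 with the 4 libraries and 1185 to 1323 with 1 library left out. The 22Rv1 calls ranged from 3437 to 4172 and the calls of the difference between lines from 3470 to 4534 with 1 library left out.

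The replicate differences of the PC3 ETV4AAA and ETV4WT pairs correlated at 0.964 across 10600 genes, and at -0.642 and -0.646 with those of eGFP, and the labels do not say what a replicate number marks. With a replicate block the calls numbered 2517 (860 higher and 1657 lower). With a replicate block of the constructs and eGFP unblocked, chosen after seeing the data, they numbered 3848 (1754 higher and 2094 lower), 2542 of them among the 2550, and the cause was not tested. In that fit 14 of 31 hypoxia and glycolysis genes, 6 of 26 sterol genes and 8 of 30 mitosis genes rose, and LDHA passed (adjusted p = 0.0361 by edgeR).

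Of 131 genes named, 92 kept their side of the threshold in every alternative, and no called gene changed sign. Among gene and setting pairs 111 lost a call, 31 of them with the 4 libraries alone, and 18 gained one. Depth limits the low genes, since many falls rest on a few CPM.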
